A study of Mus musculus with 14 samples.

Results

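The Aurora kinases, the subunits that hold Aurora B and Aurora C on chromosomes, and the proteins that activate or follow Aurora A at the poles of the meiotic spindle were followed here as a set of 10 genes. The genes are given by name, and only the choice of transcript uses counts. They were chosen with earlier results of these data known. Aurka, Aurkb and Aurkc encode the kinases, and Incenp, Birc5 and Cdca8 the other subunits of the chromosomal passenger complex. Bora and Tpx2 encode activators of Aurora A, and Tacc3 and Ckap5 the pair that Aurora A sends to spindle microtubules. All 10 were found by symbol among the 26495 RefSeq transcripts counted, and the transcript with the highest mean count stands for a gene.

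RNA was sequenced from full-grown mouse oocytes with an intact germinal vesicle, which are arrested in prophase of meiosis I and hold the mRNA store from which the first meiotic spindle is built. The 14 libraries were made from 20 oocytes each, pooled from 3 or more females of 4 to 6 weeks that had received 5 IU of eCG 48 h earlier, on a mixed background that is mostly C57BL6. The Ago2 series holds 3 libraries of Ago2 fl/fl, 3 of Ago2 ADH and 2 of Ago2 null oocytes, and the Dicer series 3 of each genotype, WT and KO. Ago2 fl/fl oocytes carry floxed Ago2 and served as the wild-type control. Ago2 ADH oocytes come from Ago2 fl/ADH females with Zp3-Cre, so that after excision of the floxed allele in growing oocytes only the catalytically inactive knock-in allele is left in this cell type. The breeding that gave Ago2 ADH females was also the source of the Ago2 null oocytes. Dicer KO oocytes lost Dicer in the oocyte alone and were compared with Dicer WT oocytes.

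In most dividing cells Aurora A acts at centrosomes and Aurora B acts at centromeres. Mouse oocytes have no centrioles, so Aurora A works at acentriolar microtubule organizing centers, and they express Aurora C, a germ cell kinase that shares the passenger subunits with Aurora B. INCENP is the scaffold that binds and activates Aurora B or Aurora C, while survivin, the product of Birc5, and borealin, the product of Cdca8, place the complex on centromeric chromatin. Bora helps Aurora A to activate Plk1, Tpx2 binds Aurora A and holds it in an active state on microtubules, and phosphorylated Tacc3 carries Ckap5, a microtubule polymerase, onto the spindle.

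The sum of counts over transcripts ranged from 29380403 to 58285057 per library, and the 12 oocyte markers summed to 11921 to 18568 CPM (counts per 1000000 counted, on library sizes scaled by TMM over the 14 libraries), with Sohlh1 alone near 0. The 16 cumulus and granulosa markers summed to 74.1 to 80.3 CPM in Ago2 fl/fl, 62.3 to 67.7 in Ago2 ADH and 53.9 to 58.1 in Ago2 null, and to 92.6 to 101.2 in Dicer WT and 78.7 to 80.6 in Dicer KO. Most of that sum was Nr5a2 and Cyp19a1, whereas Ptx3 was at 0 in 13 and Foxl2 in 8 of the 14 libraries. The 6 theca and stroma markers summed to at most 3.11 CPM, and of the 4 blood, immune and vessel markers measured, Hbb-bt was at 0 in all 14 libraries and Pecam1 gave nearly the whole sum of 32.4 to 44.0 CPM. The part of these cells in the results was not tested. Ago2 itself (chromosome 15, 73101625 to 73184947) had 24.4, 25.5 and 24.0 CPM in Ago2 fl/fl, 13.7, 12.96 and 12.4 in Ago2 ADH and 7.17 and 5.30 in Ago2 null, in the order of its labels. Dicer1 (chromosome 12, 104687740 to 104751968) went against its label, with 749.8, 745 and 779 CPM in Dicer WT and 1943, 1824 and 1679 in the libraries labelled Dicer KO. A count over the whole transcript cannot show the loss of a few exons, so this count checks nothing about the deletion, and every direction given below for those libraries rests on their label. By the lane marks deposited with the counts, the libraries of an Ago2 genotype shared a lane that held no other genotype. Each Dicer library had its own lane. In the Ago2 series the effect of a lane cannot be told apart from that of its genotype. The paper's methods give separate collections for the replicates, and several animals of a genotype behind each tube.

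Aurkc needs a remark before its values, because the mouse genome holds close copies of it. Of its 36-base words 70.2% also occur in annotated transcripts of other genes. Of its 50-base words, the longer of the read lengths used, 63.4% do. The copies are pseudogenes, of which Gm12463 on chromosome 4 is 99.3% identical to Aurkc over 848 aligned bases and Gm7789 on chromosome 7 is 95.6% identical over 1192. The other members share at most 3.18% of their 36-base words with transcripts of other genes (Birc5). The 3 kinases share no 36-base word with each other. Introns and the rest of the genome were not searched. The stretch printed here shows how little a read has to tell them apart: 150 bases of Aurkc exon 3 (GRCm38, chr7:6996519-6996668, plus strand), with capitals at the 7 positions where Gm7789 differs.
Aurkc: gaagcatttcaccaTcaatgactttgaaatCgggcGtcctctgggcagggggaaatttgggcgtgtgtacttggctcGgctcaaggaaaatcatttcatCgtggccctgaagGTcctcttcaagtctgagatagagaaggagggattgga
Gm12463: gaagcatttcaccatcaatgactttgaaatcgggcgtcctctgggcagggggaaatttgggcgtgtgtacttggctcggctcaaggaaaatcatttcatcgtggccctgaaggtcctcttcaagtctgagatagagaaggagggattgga
Gm7789: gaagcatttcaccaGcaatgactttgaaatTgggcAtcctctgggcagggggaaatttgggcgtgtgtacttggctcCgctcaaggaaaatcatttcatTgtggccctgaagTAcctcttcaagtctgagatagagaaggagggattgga
No base of Gm12463 differed from Aurkc in this stretch. The count files tally reads with several alignments apart from the transcript counts, and whether reads that fit both Aurkc and a copy went to the count or to the tally was not tested. The tally was set against the sum of itself, all transcript counts and the tally of reads in no annotated feature. A read can count on several transcripts, so the percentages are of that sum and not of reads. The tally was larger in the mutants, at 57.3% to 58.1% in Ago2 ADH and 57.0% to 58.3% in Ago2 null against 33.2% to 34.6% in Ago2 fl/fl. It was 44.4% to 49.5% in Dicer KO against 25.6% to 31.5% in Dicer WT. Its part in every difference given for Aurkc was likewise not tested. No exon of any member overlaps an exon of another gene.

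Levels were compared between genes as CPM per kb of transcript. In Ago2 fl/fl oocytes Tacc3, the adaptor of the spindle, stood highest at 563 ± 45.9 (SD, n = 3), followed by Birc5 at 233 ± 17.3, Aurkc at 125 ± 6.39, Aurka at 72.3 ± 0.663, Cdca8 at 59.5 ± 1.17 and Tpx2 at 46.4 ± 1.51. Ckap5 at 28.1 ± 1.71, Incenp at 24.0 ± 0.764, Bora at 19.6 ± 1.03 and Aurkb at 7.88 ± 0.765 closed the order. No neighbours in this order overlapped in their 3 libraries. The place of Birc5 depends on its length. With the shorter RefSeq transcript, of 947 rather than 3334 bases and almost the same reads, it would stand at 819.9 CPM per kb, above Tacc3. The place of Aurkc depends on where reads that also fit its pseudogenes were counted, which was not tested.

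Per length, the mRNA of the scaffold Incenp was thus lower in Ago2 fl/fl than that of survivin or borealin, and Aurkb was the scarcest of the 10. In Dicer WT oocytes, which come from other mice and other sequencing lanes and were not tested against Ago2 fl/fl, Tacc3 was again first at 548 ± 23.1 CPM per kb and Aurkb last at 7.998 ± 0.429. Birc5 at 136 ± 9.39 and Aurkc at 63.9 ± 6.12 were lower there than in Ago2 fl/fl, and Aurka, Cdca8 and Tpx2, at 49.8 ± 1.28, 48.1 ± 1.58 and 47.9 ± 1.95, overlapped as neighbours.

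**Figure D1:**
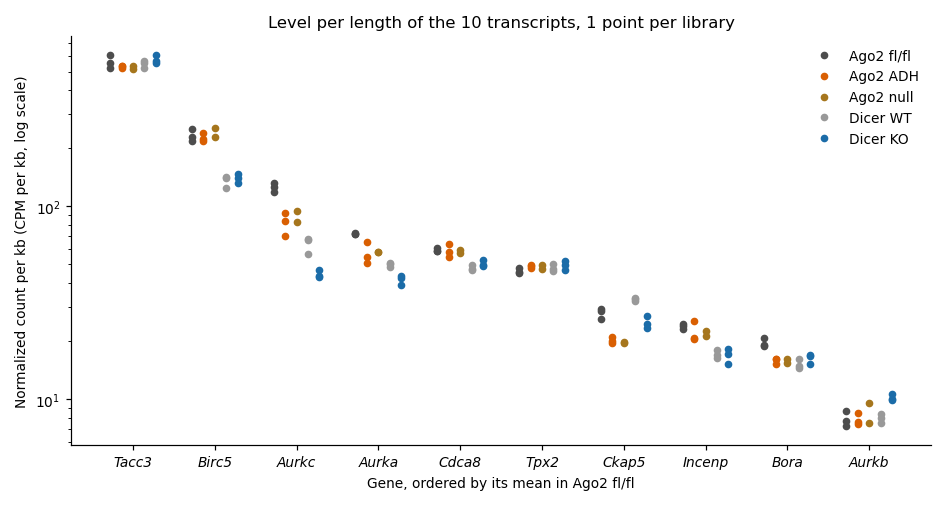
Each point is the CPM per kb of transcript (log axis) of a gene in a single library, for the 10 genes ordered by their mean in Ago2 fl/fl and coloured by group. Tacc3 stands highest in all 5 groups and Aurkb lowest, and Aurkc, Aurka and Ckap5 sit lower in the mutant groups than in their own controls.

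The mutant groups kept Tacc3 and Birc5 at the top and Bora and Aurkb at the bottom, while the middle of the order changed. In Ago2 ADH oocytes Cdca8 (58.7 ± 4.62 CPM per kb) and Aurka (57.1 ± 7.55) overlapped, as did Incenp (22.2 ± 2.73) and Ckap5 (20.2 ± 0.800). In the libraries labelled Dicer KO, Cdca8 at 50.5 ± 2.08, Tpx2 at 49.6 ± 2.95, Aurkc at 44.4 ± 1.94 and Aurka at 41.9 ± 2.27 each overlapped with the next in this order. Aurkc thus overlapped with Tpx2 and Aurka there, and not with Cdca8.

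The first comparison set Ago2 ADH oocytes, whose AGO2 is catalytically inactive, against Ago2 fl/fl. They also differ from Ago2 fl/fl by a single Ago2 allele and by Zp3-Cre, which Ago2 null oocytes carry as well. No library held either of these alone, so their part cannot be told apart from that of lost catalysis. In Ago2 ADH oocytes Aurkc, Ckap5, Aurka and Bora fell, to between 67.9% and 83.7% of their Ago2 fl/fl level, and the 3 passenger subunits, Tacc3, Tpx2 and Aurkb did not pass the test. By edgeR's quasi-likelihood test at an FDR of 1% over all transcripts, 4 of the 10 genes were lower and 0 higher. Over the 18835 transcripts tested, 20.1% were lower and 20.5% higher. At an unadjusted p under 0.05 4 genes were lower and 1 higher, beside 10802 of 18835 transcripts in either direction. DESeq2 also called 4 lower and 0 higher, beside 4063 lower and 4007 higher of the 18835 transcripts. All 10 genes passed the filter on low counts in every comparison. The median log2 fold change of the 10 was -0.05, beside 0.0069 for all transcripts tested. In a pool of 20 oocytes a smaller amount in every oocyte and a loss in some of them cannot be told apart.

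Aurkc, the germ cell kinase of the passenger complex (chromosome 7, 6995347 to 7003091, 7 exons), had 174, 166 and 157 CPM in Ago2 fl/fl and 111, 123 and 92.3 CPM in Ago2 ADH. The highest mutant library lay below the lowest control. Its log2 fold change was -0.56 (standard error, SE, 0.0731; adjusted p = 3.5e-06 by edgeR), a level of 67.9% of control with a 95% interval of 61.0% to 75.5%. Its 3 RefSeq transcripts gave nearly the same value. Their mean counts were 5138 to 5238 and a read can count on several of them, so this is no separate check.

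Ckap5, the microtubule polymerase (chromosome 2, 91526747 to 91620679, 43 exons), had 172, 188 and 193 CPM in Ago2 fl/fl and 132, 128 and 139 CPM in Ago2 ADH. The groups did not overlap. This gave a log2 fold change of -0.43 (SE 0.0569, adjusted p = 4.28e-06 by edgeR), with an interval of 68.4% to 80.8% of control.

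Aurka, the pole kinase (chromosome 2, 172356190 to 172370886, 9 exons), had 139, 137 and 137 CPM in Ago2 fl/fl and 97.0, 125 and 105 CPM in Ago2 ADH. The controls lay close together and the mutant libraries were spread, with replicate 1 lowest. Aurka differed by -0.29 on the log2 scale (SE 0.0678, adjusted p = 0.00128 by edgeR). Without Ago2 ADH replicate 1 it was -0.23 and missed the threshold (adjusted p = 0.0121 by edgeR).

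Bora, the cofactor of Aurora A toward Plk1 (chromosome 14, 99046377 to 99074540, 12 exons), had 51.3, 56.6 and 52.2 CPM in Ago2 fl/fl and 41.4, 44.2 and 44.2 CPM in Ago2 ADH. The ranges were apart, and the mutant libraries nearly alike. Bora differed by -0.26 on the log2 scale (SE 0.0662, adjusted p = 0.00315 by edgeR). It missed the threshold without Ago2 fl/fl replicate 2, at -0.21 (adjusted p = 0.0314 by edgeR), and without Ago2 ADH replicate 1, at -0.24 (adjusted p = 0.0188 by edgeR).

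Tpx2, which activates Aurora A on microtubules (chromosome 2, 152847964 to 152895321, 18 exons), had 198, 200.3 and 210.2 CPM in Ago2 fl/fl and 215, 216 and 208 CPM in Ago2 ADH. A mutant library lay within the control range. Its difference of 0.12 (log2; SE 0.0480, adjusted p = 0.0432 by edgeR) did not pass the 1% threshold, with an interval of 101% to 117% of control.

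Tacc3 (chromosome 5, 33658128 to 33672203, 15 exons), whose protein carries Ckap5, had 1338, 1217 and 1138 CPM in Ago2 fl/fl and 1136, 1164 and 1168 CPM in Ago2 ADH. The control range covered all but the lowest mutant library, and the interval was 90.3% to 104% of control. Aurkb (chromosome 11, 69045624 to 69051664, 8 exons), the kinase of mitotic passenger complexes, had 14.96, 14.1 and 17.0 CPM in Ago2 fl/fl and 14.9, 16.6 and 14.6 in Ago2 ADH. All mutant libraries lay within the control range, and its interval was 89.2% to 119% of control, with counts of 631 to 907 per library.

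The 3 passenger subunits overlapped between the groups. Incenp (chromosome 19, 9872295 to 9899489, 18 exons), the scaffold, had 78.0, 79.8 and 74.9 CPM in Ago2 fl/fl and 67.2, 82.2 and 66.5 in Ago2 ADH. Birc5 (chromosome 11, 117849237 to 117855743, 3 exons) had 842, 762 and 729.8 CPM in Ago2 fl/fl and 729, 802 and 746 in Ago2 ADH. Cdca8 (chromosome 4, 124918465 to 124936917, 10 exons) had 95.4, 98.9 and 96.0 CPM in Ago2 fl/fl and 94.1, 104 and 88.7 in Ago2 ADH. Within the Ago2 ADH group the 3 kinases and the 3 passenger subunits were each highest in replicate 2. The intervals of the passenger subunits, Tpx2 and Tacc3 together ran from 86.5% to 117% of control, so a change of the size seen in Aurkc or Ckap5 lay outside them.

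**Figure D2:**
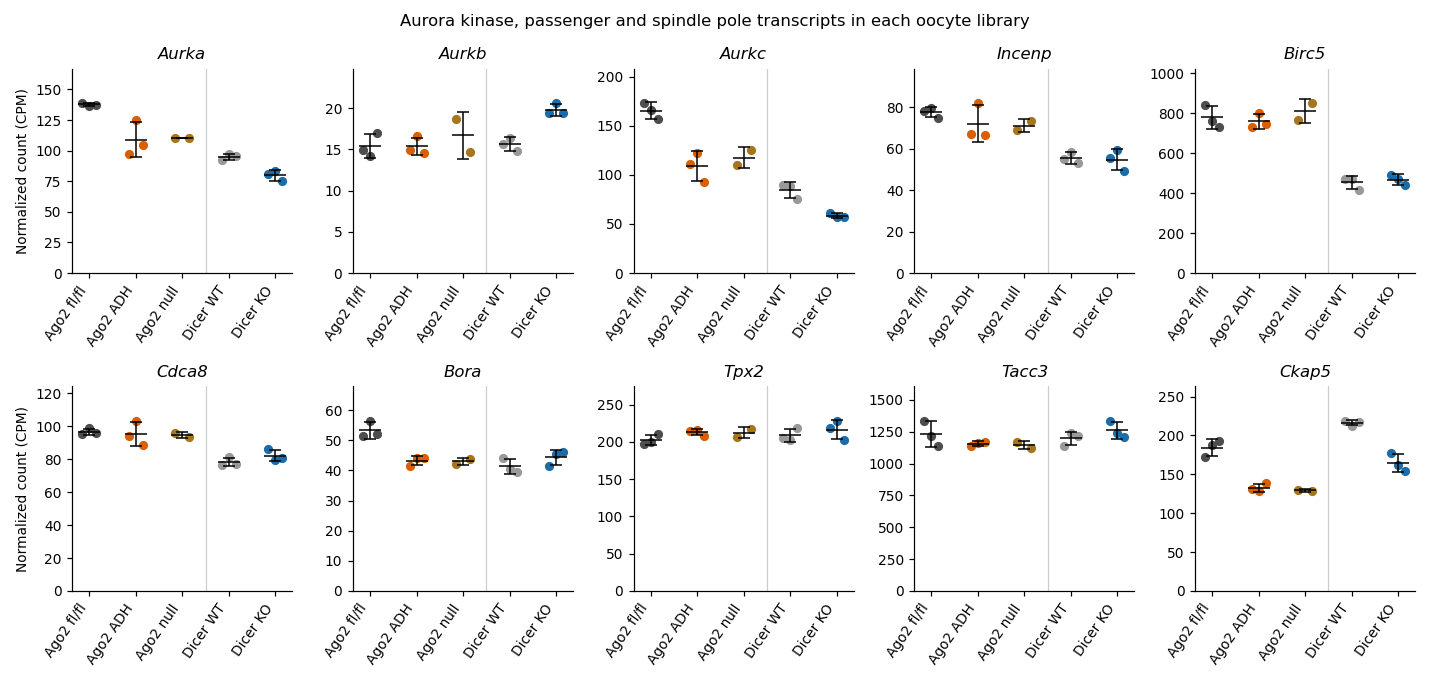
Each panel gives the CPM of a gene in every library (points) by group, with the group mean and SD (bars) over 3 libraries, or 2 for Ago2 null; the grey line parts the Ago2 from the Dicer libraries. Aurka, Aurkc and Ckap5 lie lower in each mutant group than in its control and Bora in both Ago2 mutant groups, and the other mutant groups overlap with their control apart from Aurkb in Dicer KO and Incenp in Ago2 null.

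Ago2 null oocytes addressed the loss of the protein as a whole and were set against the same Ago2 fl/fl libraries, so this comparison and the first share their controls. The genes that fell were Ckap5, Aurkc, Aurka and Bora, at 71.5% to 82.4% of control. By edgeR 4 of 10 were lower and 0 higher, beside 19.1% lower and 18.1% higher among 19236 transcripts. At an unadjusted p under 0.05 4 genes were lower and 0 higher, beside 10636 of 19236 transcripts in either direction. DESeq2 called 4 lower and 0 higher, beside 3857 lower and 3592 higher of the 19236 transcripts. The median was -0.08, beside 0.0018 for all transcripts.

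Ckap5 had 130.5 and 128 CPM in Ago2 null, below all controls. Its log2 fold change was -0.48 (SE 0.0652, adjusted p = 1.21e-05 by edgeR). Aurkc had 109.8 and 125 CPM, also below all controls. This is a log2 fold change of -0.46 (SE 0.0681, adjusted p = 2.95e-05 by edgeR).

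Aurka had 110.003 and 110.079 CPM in Ago2 null, almost the same and apart from the controls. It was -0.29 on the log2 scale (SE 0.0582, adjusted p = 0.000519 by edgeR), and the call held without each library in turn. Bora had 42.2 and 43.8 CPM, below the lowest control. The difference of -0.28 (log2; SE 0.0753, adjusted p = 0.00544 by edgeR) missed the threshold in 4 of 5 fits with a library left out: -0.23 without Ago2 fl/fl replicate 2 (adjusted p = 0.0465 by edgeR), -0.29 without Ago2 fl/fl replicate 3 (adjusted p = 0.0144 by edgeR), -0.25 without Ago2 null replicate 1 (adjusted p = 0.0346 by edgeR) and -0.31 without Ago2 null replicate 2 (adjusted p = 0.0127 by edgeR). With an Ago2 null library left out, the lone library was assumed to vary like the controls.

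The remaining members did not pass the test in Ago2 null. Incenp had 68.8 and 73.2 CPM, both just under the lowest control, with an interval of 84.7% to 103% of control. Aurkb had 18.7 and 14.7 CPM, the widest relative spread of any member in any group, and an interval of 92.9% to 133%. Birc5 had 767 and 852 CPM, Cdca8 96.1 and 93.4, Tpx2 207 and 218, and Tacc3 1170.2 and 1126, each overlapping with its controls.

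The Dicer KO and Dicer WT libraries asked the same of the enzyme that makes endo-siRNAs and miRNAs, in libraries that share no control with the others. Aurkc, Ckap5 and Aurka were lower in the libraries labelled Dicer KO, at 69.3% to 83.9% of Dicer WT, and Bora did not pass the test. By edgeR 3 of 10 were lower and 0 higher, beside 17.8% lower and 16.7% higher among 18570 transcripts. At an unadjusted p under 0.05 3 genes were lower and 1, Aurkb, was higher, beside 9722 of 18570 transcripts in either direction. DESeq2 called 3 lower and 1 higher, beside 3458 lower and 3317 higher of the 18570 transcripts. The median was 0.04, beside -0.0044 for all transcripts.

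Aurkc had 89.6, 88.3 and 75.0 CPM in Dicer WT and 61.5, 56.9 and 57.3 CPM in Dicer KO. The groups were apart, and Dicer WT replicate 3 was the control nearest to the mutants. Aurkc differed by -0.53 on the log2 scale (SE 0.0789, adjusted p = 2.17e-05 by edgeR), with an interval of 61.8% to 77.8% of control.

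Ckap5 had 219, 213 and 218 CPM in Dicer WT and 177, 162 and 154 CPM in Dicer KO. Every mutant library lay well under the narrow control range. Ckap5 differed by -0.40 on the log2 scale (SE 0.0634, adjusted p = 4.20e-05 by edgeR), with an interval of 69.1% to 83.1%.

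Aurka had 92.2, 97.0 and 95.3 CPM in Dicer WT and 80.9, 83.4 and 74.9 CPM in Dicer KO. The groups did not overlap. A difference of -0.25 (log2; SE 0.0675, adjusted p = 0.00470 by edgeR) missed the threshold without Dicer WT replicate 2, at -0.25 (adjusted p = 0.0169 by edgeR), without Dicer WT replicate 3, at -0.25 (adjusted p = 0.0120 by edgeR), and without Dicer KO replicate 3, at -0.21 (adjusted p = 0.0240 by edgeR).

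Aurkb had 15.7, 16.4 and 14.7 CPM in Dicer WT and 19.3, 20.7 and 19.4 CPM in Dicer KO. The ranges were apart, with counts of 581 to 681 in the mutant libraries. The difference of 0.34 (log2; SE 0.108, adjusted p = 0.0148 by edgeR) did not pass at 1%, whereas DESeq2 called it (adjusted p = 0.00634), and the interval was 108% to 148% of control.

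Bora had 44.0, 40.6 and 39.5 CPM in Dicer WT and 41.5, 45.5 and 46.0 CPM in Dicer KO. The groups overlapped, with an interval of 94.96% to 121% of control. Among the passenger subunits Incenp had 55.2, 58.4 and 52.9 CPM in Dicer WT and 55.6, 59.1 and 49.3 in Dicer KO, while Birc5 had 471, 473 and 417 against 492, 469 and 439.6, and Cdca8 76.4, 81.2 and 77.2 against 86.0, 79.8 and 80.6. All 3 overlapped. Tpx2 had 206, 203 and 219 CPM in Dicer WT and 218, 229 and 203 in Dicer KO, and Tacc3 1142, 1238 and 1214 against 1337, 1238 and 1207. These overlapped as well, and the intervals of the passenger subunits, Tpx2 and Tacc3 ran from 87.3% to 116% of control.

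**Figure D3:**
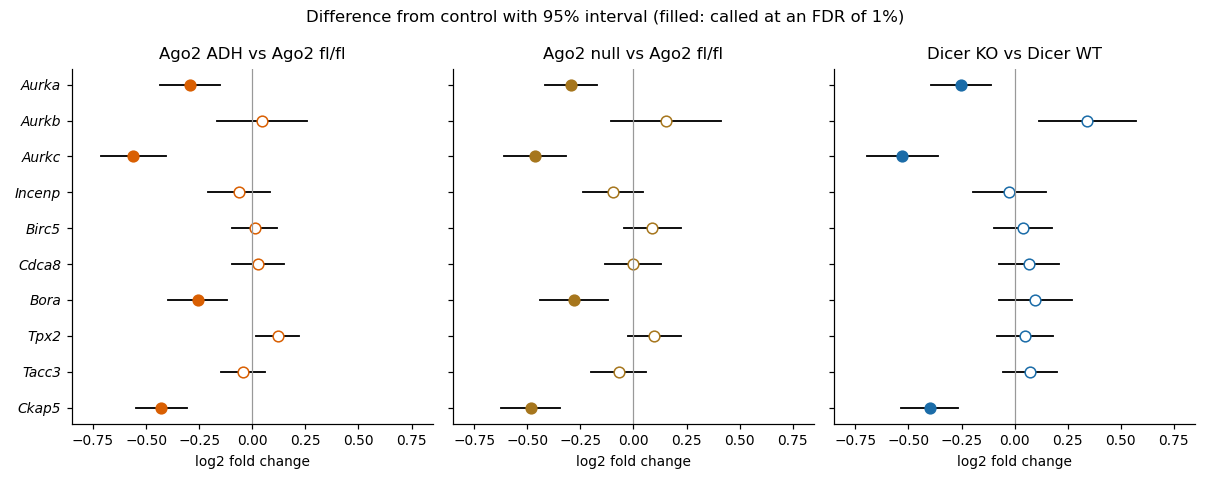
Each panel gives the log2 fold change of the 10 genes against control (circle) with its 95% interval (line) from edgeR, and a filled circle marks a call at an FDR of 1%. Aurka, Aurkc and Ckap5 are filled left of 0 in all 3 panels, Bora in both Ago2 panels, and the intervals of Incenp, Birc5, Cdca8 and Tacc3 cover 0 in each panel.

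Ago2 ADH and Ago2 null oocytes were also compared directly. By edgeR 0 of the 10 genes were lower and 0 higher in Ago2 ADH than in Ago2 null, and DESeq2 called 0. Over 19306 transcripts 0.0518% were lower and 0.0673% higher by edgeR, and DESeq2 called 81. At an unadjusted p under 0.05 there were 0 of the 10 genes, beside 1931 of the 19306 transcripts. The log2 differences ran from -0.12 for Aurkb to 0.04 for Ckap5, and the intervals of Aurka (87.3% to 111% of the null level), Aurkc (80.8% to 106%) and Ckap5 (93.1% to 113%) bound how far the mutants could differ.

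Whether the Ago2 ADH effect differed from the Dicer KO effect was tested as an interaction over 12 libraries. By edgeR 0 of the 10 genes passed in either direction, beside 2.35% of 19500 transcripts with a lower and 1.2% with a higher Ago2 ADH effect. At an unadjusted p under 0.05 2 genes, Bora and Aurkb, had a lower Ago2 ADH effect, beside 4550 of 19500 transcripts in either direction. DESeq2 called Bora alone, beside 591 of the 19500 transcripts with a lower and 513 with a higher Ago2 ADH effect. For Bora the difference of the log2 fold changes was -0.41 (SE 0.103, adjusted p = 0.0153 by edgeR and 0.00648 by DESeq2). For Aurkb it was -0.35 (SE 0.144, adjusted p = 0.143 by edgeR). For Aurkc, Ckap5 and Aurka it was -0.08, -0.08 and -0.09, with standard errors of 0.118, 0.0845 and 0.102.

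The balance of the 3 kinases was read as the share of each in their summed CPM per kb, as a description with no test. Aurkc held the largest share in every library but Dicer KO replicate 2. It held 62.0%, 61.4% and 59.5% in Ago2 fl/fl, 59.0%, 55.7% and 52.8% in Ago2 ADH, and 55.3% and 59.2% in Ago2 null. In Dicer WT its share was 54.6%, 53.0% and 49.7%, and in Dicer KO 47.1%, 44.3% and 46.8%. How many of its reads went to the tally of several alignments bears on these shares and was not tested.

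Aurka held 34.4%, 35.05% and 36.1% in Ago2 fl/fl against 35.7%, 39.2% and 41.5% in Ago2 ADH, with overlap, and 38.4% and 36.1% in Ago2 null. Its share was 39.0%, 40.3% and 43.7% in Dicer WT and 42.9%, 44.9% and 42.4% in Dicer KO, again with overlap, and in Dicer KO replicate 2 it passed that of Aurkc. Aurkb held 3.62%, 3.54% and 4.38% in Ago2 fl/fl, 5.35%, 5.09% and 5.65% in Ago2 ADH and 6.37% and 4.71% in Ago2 null. Its share was 6.46%, 6.66% and 6.61% in Dicer WT and 10.02%, 10.9% and 10.8% in Dicer KO. Aurkb was thus the least of the 3 in each library, and its share was larger in each mutant group than in any control of the same series. A share also rises where the other kinases fall, as Aurka and Aurkc did in each mutant group. Aurkb itself had a mean of 15.4 CPM in Ago2 fl/fl, 15.4 in Ago2 ADH and 16.7 in Ago2 null. In the Dicer series its mean was 15.6 CPM in WT and 19.8 in KO.

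**Figure D4:**
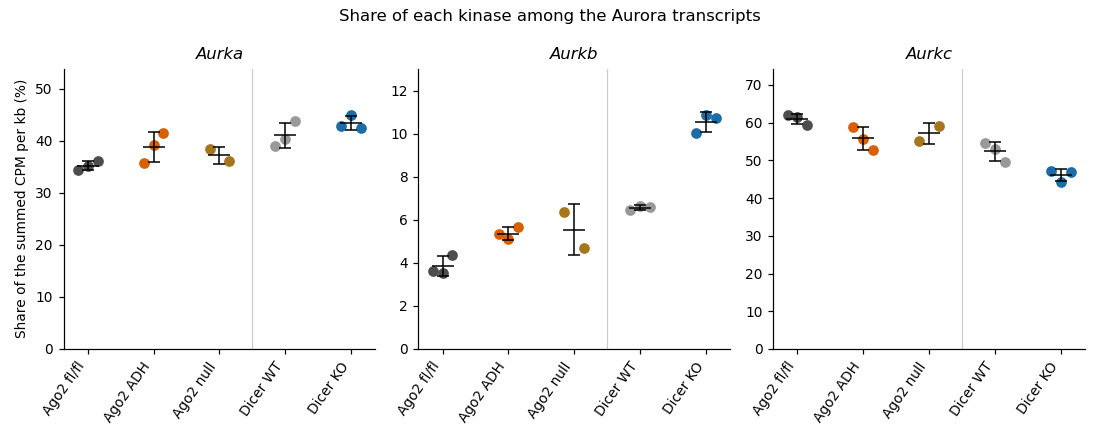
Each panel gives the share (%) of a kinase in the summed CPM per kb of Aurka, Aurkb and Aurkc for every library (points), with the group mean and SD (bars); the panels have different axes that start at 0. The share of Aurkb is between 3.54% and 4.38% in Ago2 fl/fl, 5.09% and 5.65% in Ago2 ADH, and 4.71% and 6.37% in Ago2 null. In the Dicer series it is between 6.46% and 6.66% in WT and between 10.02% and 10.9% in KO.

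The genes whose pattern was most like that of a kinase were taken from 8670 genes with a mean of at least 5 CPM, by Pearson's r of log2 CPM over the 14 libraries after each library was centred on its own control group. The libraries of a group share a genotype, so the 14 points are not independent. For Aurka they were Tfap2e (r = 0.956), Cnot8 (r = 0.956), a deadenylase subunit, and Tdrp (r = 0.954). For Aurkc they were Pdcd7 (r = 0.970), a component of the minor spliceosome, Tmem41b (r = 0.969), a lipid scramblase, and Polr2l (r = 0.965), a shared subunit of the RNA polymerases. For Aurkb the closest were weaker, Ddx51 (r = 0.894), a helicase of ribosome assembly, Fadd (r = 0.876), an adaptor of death receptors, and Ell (r = 0.869), an elongation factor.

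Promoter sequences from RefSeq (GRCm38.p6) were at hand for 6 of the 10 genes, and the 250 bases before the start that RefSeq lists for each were searched on both strands for the CHR element TTTGAA, which reads TTCAAA on the other strand, and for CCAAT, letters common in promoters of genes of the mitotic cell cycle. Of all 32851 promoters of this length, 16.0% held TTTGAA and 33.9% held CCAAT at least once. The window of Aurka lies inside the span of its counted transcript, so its letters are not described. The windows of Ckap5 and Aurkc run a few bases past the start of the counted transcript. Ckap5 held each motif once, before that start, and Aurkc held neither. Of the others with an entry, Cdca8 held CCAAT at 3 places, and Birc5 and Tacc3 held neither motif. Ckap5 and Aurkc are shown because both fell in every mutant group, with the motif matches in capitals (Ckap5: chr2:91526512-91526761, plus strand; Aurkc, the first 165 bases of its window: chr7:6995135-6995299, plus strand).
Ckap5: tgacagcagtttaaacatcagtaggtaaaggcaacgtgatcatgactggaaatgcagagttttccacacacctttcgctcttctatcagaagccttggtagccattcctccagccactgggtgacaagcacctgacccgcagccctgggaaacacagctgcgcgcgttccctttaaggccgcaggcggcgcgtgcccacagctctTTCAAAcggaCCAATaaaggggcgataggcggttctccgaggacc
Aurkc: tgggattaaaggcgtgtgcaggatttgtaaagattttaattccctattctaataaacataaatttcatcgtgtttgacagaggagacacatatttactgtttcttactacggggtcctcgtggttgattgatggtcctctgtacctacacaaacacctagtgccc
The matches in Ckap5 do not overlap. A match is a string of letters and not a site shown to be used.

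The genes around the members were taken as 5 lists, 85 genes in all, every one of which was tested. In Ago2 ADH oocytes 17 of the 85 were higher, beside 20.5% of all transcripts, and 23 (27.1%) were lower, beside 20.1%. In Ago2 null 17 were higher (18.1% of all transcripts) and 26, or 30.6%, lower (19.1% of all). In the libraries labelled Dicer KO 13, or 15.3%, were higher (16.7% of all) and 20, or 23.5%, lower (17.8% of all). The higher shares lay near those of all transcripts, and no test was made of the lower ones. In the interaction test 2 had a higher (Nedd9 and Klhl21) and 4 a lower Ago2 ADH effect (Knl1, Pcnt, Pak1 and Dlgap5, of which the last 3 were named after their values were seen), which is 2.35% and 4.71% of the lists beside 1.2% and 2.35% of all transcripts. The counts called in each list below are to be read beside these shares of all transcripts. The list medians are log2 fold changes, to be read beside the medians of all transcripts given above.

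Of 14 regulators of Aurora A, 3 rose, 2 fell and 9 did not pass the test in Ago2 ADH (median 0.14), 4 rose and 2 fell in Ago2 null (median 0.08), and 2 rose and 1 fell in Dicer KO (median 0.01). Among the genes called in Ago2 ADH and in Dicer KO the largest rise was that of Ppp6r3, a regulatory subunit of PP6, the phosphatase that turns Aurora A off, with log2 fold changes of 1.05 in Ago2 ADH and 0.76 in Dicer KO (adjusted p = 5.36e-12 and 1.33e-08 by edgeR). The largest fall in both was that of Nedd9, a scaffold that activates Aurora A, from 34.7 ± 1.66 CPM (n = 3) in Ago2 fl/fl to 15.6 ± 2.00 in Ago2 ADH and from 36.2 ± 1.56 in Dicer WT to 7.30 ± 0.771 in Dicer KO. Its log2 fold changes were -1.10 and -2.31 (adjusted p = 9.93e-09 and 4.29e-12 by edgeR).

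Of 22 genes of the acentriolar pole, 3 rose and 6 fell in Ago2 ADH (median -0.07), as many in Ago2 null (median -0.15), and 2 rose and 4 fell in Dicer KO (median -0.03). Hmmr, a microtubule-bound partner of Tpx2, rose from 82.0 ± 3.52 CPM (n = 3) in Ago2 fl/fl to 220.4 ± 8.08 in Ago2 ADH and from 212 ± 11.2 in Dicer WT to 609.7 ± 24.9 in Dicer KO, with log2 fold changes of 1.47 and 1.52 (adjusted p = 2.61e-14 and 2.92e-13 by edgeR). The largest falls were Tubgcp5, of the gamma-tubulin ring complex, in Ago2 ADH (-0.48, adjusted p = 0.000162 by edgeR) and Cep152, a scaffold of centriole duplication, in Dicer KO (-0.76, adjusted p = 0.00113 by edgeR).

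Of 24 genes that recruit the passenger complex or counter it, 6 rose and 7 fell in Ago2 ADH (median -0.01), 6 rose and 8 fell in Ago2 null (median -0.07), and 4 rose and 8 fell in Dicer KO (median -0.16). Klhl9, a substrate adaptor through which Cul3 acts on Aurora B, fell most in both, by 1.36 in Ago2 ADH and by 1.62 in Dicer KO on the log2 scale (adjusted p = 8.59e-13 and 2.71e-13 by edgeR). Klhl21 rose most in Ago2 ADH, from 2.91 ± 0.525 to 12.1 ± 2.63 CPM (n = 3; log2 fold change 2.11, adjusted p = 5.54e-09 by edgeR). Knl1, the kinetochore scaffold that docks PP1, rose most in Dicer KO (1.37, adjusted p = 3.00e-12 by edgeR). The kinases that write the chromatin marks read by the complex, chosen after their values were seen, were Haspin, at -0.63 in Ago2 ADH and -0.88 in Dicer KO (adjusted p = 1.18e-07 and 1.36e-08 by edgeR), and Bub1, at 0.39 and 0.55 (adjusted p = 2.23e-06 and 3.51e-07 by edgeR). They differed in direction, and Haspin lies inside an intron of Itgae, whose unspliced reads could not be told apart by strand.

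Of 11 substrates of Aurora B and Aurora C, 1 rose and 3 fell in Ago2 ADH (median -0.08), 1 rose and 4 fell in Ago2 null (median -0.07), and 2 rose and 2 fell in Dicer KO (median -0.03). Kif2c, the microtubule depolymerase of centromeres, rose by 0.73 and 0.80 (adjusted p = 1.39e-09 and 1.02e-08 by edgeR). Kif23, the kinesin of centralspindlin, fell by 0.50 and 0.41 on the log2 scale (adjusted p = 2.19e-08 and 1.37e-05 by edgeR).

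Of 14 partners of Tpx2 and Ckap5, 4 rose and 5 fell in Ago2 ADH (median -0.15), 3 rose and 6 fell in Ago2 null (median -0.19), and 3 rose and 5 fell in Dicer KO (median -0.15). Kif15, a spindle kinesin targeted by Tpx2, rose most in Ago2 ADH (1.14, adjusted p = 7.26e-08 by edgeR) and Kifc1, a minus-end directed kinesin of the spindle pole, in Dicer KO (1.38, adjusted p = 2.22e-09 by edgeR). The largest falls were Nusap1, a microtubule bundling protein, in Ago2 ADH (-0.58, adjusted p = 1.41e-08 by edgeR) and Kif11, the bipolar kinesin-5, in Dicer KO (-0.53, adjusted p = 6.60e-06 by edgeR).

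**Figure D5:**
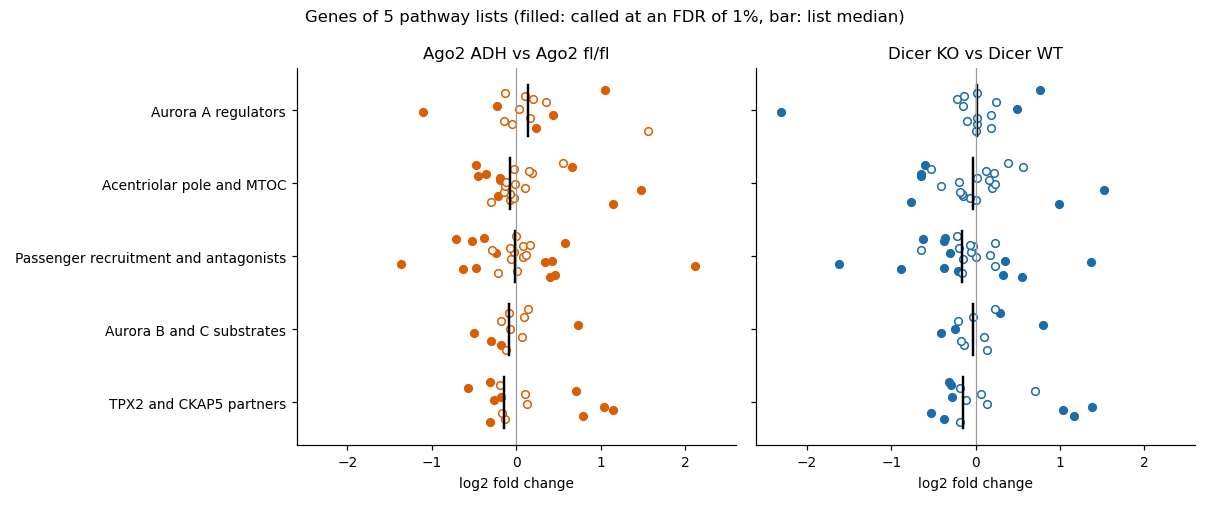
Each circle is the log2 fold change of a gene of 5 lists in Ago2 ADH against Ago2 fl/fl (left) and Dicer KO against Dicer WT (right), filled where called by edgeR at an FDR of 1%, and the bar is the list median. Each list holds calls on both sides of 0 in both panels, and the medians lie between -0.16 and 0.14.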

How the data were processed

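The authors amplified cDNA from lysed oocytes, mapped paired-end reads of 36 or 50 bases to mm10 and its refGene models with TopHat, keeping at most 100 alignments of a read, and used htseq-count without strand in its strict intersection mode. The submitters' processing notes name TopHat2 2.0.7, HTSeq 0.6.1 and DESeq 1.10.0. The deposited values are raw read counts per RefSeq transcript, and 5 tally lines were left out of library sizes. A read can count on several transcripts of a gene. Groups and replicate numbers came from the sample titles.

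Symbols came from RefSeq (26081 transcripts) and GENCODE (113), and 301 IDs stayed without one. GRCm38, the build of these tables, is mm10. Each comparison was fitted on its own libraries with edgeR 4.0.16 in R 4.3.3 (filterByExpr with minimum counts of 10 and 15 in total, TMM, quasi-likelihood test, Benjamini-Hochberg over all transcripts, FDR 1%). The standard error is the absolute log2 fold change over the square root of F, and intervals use its t distribution. Alternatives were DESeq2 1.42.0, RLE scaling, no filter, an FDR of 5%, all 5 groups in one fit, 1 transcript per gene, the least counted transcript, a replicate block and each library left out. The fits were also run on simulated data. The planted changes were larger than those of the members, so recovery of changes of the members' size was not tested. Tables were made with Python 3.11.15, numpy 2.4.6 and pandas 2.3.3.

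The genes named were all 10 members, Ago2 and Dicer1, the called gene with the largest rise and fall of each list in Ago2 ADH and in Dicer KO, and the 3 genes most like each kinase. Haspin, Bub1, Pcnt, Pak1 and Dlgap5 were named after their values were seen. Members and lists were chosen with earlier results of these data known. Replicates are pools of oocytes, so p-values measure the spread between pools. No 2 libraries of a group agreed within sampling noise (chi-square per degree of freedom 6.54 to 14.9), and 3 counts stood as the detection floor. The amplified reads are not independent molecules. CPM are relative to all RNA counted, so a change in the total RNA of an oocyte is not seen.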

Additional observations from a re-analysis of the deposited data

Results flagged for a closer look

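No member met a rule for a closer look: for none of the 10 did the interaction test of edgeR pass at an FDR of 1%. An unadjusted p under 0.05 was met by 2, beside 4550 of 19500 transcripts, and DESeq2 called 1, beside 1104 of 19500. Groups of 2 or 3 libraries were not tested for single outlying libraries. Of Ago2, Dicer1 and the 85 genes of the lists, 7 passed the interaction test. The difference (Ago2 ADH effect minus Dicer KO effect, log2 scale) was -0.63 for Dicer1 (adjusted p = 4.51e-06 by edgeR), whose count rose by 0.67 in Ago2 ADH and by 1.26 in the libraries labelled Dicer KO. It was 1.15 for Nedd9 (adjusted p = 1.46e-05 by edgeR), which fell in both. For Knl1 it was -1.09 (adjusted p = 2.22e-08 by edgeR), with a rise in both. For Klhl21 it was 1.82 (adjusted p = 0.00448 by edgeR), with 12.1 ± 2.63 CPM in Ago2 ADH and a spread of 5.72 ± 3.61 CPM over the 3 libraries labelled Dicer KO. The difference was -0.52 for Pak1 (adjusted p = 4.36e-05), -0.41 for Pcnt (adjusted p = 0.00617) and -0.42 for Dlgap5 (adjusted p = 0.0021), all by edgeR.

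Outside the transcript counts, the tally of reads with several alignments was above that of the controls in each mutant group. As a percentage of the sum defined with Aurkc, which is not a number of reads, its mean was 57.7% in Ago2 ADH. It was 57.6% in Ago2 null, against 33.7% in Ago2 fl/fl, and 46.3% in Dicer KO against 28.4% in Dicer WT. Of the members Aurkc is the one most of whose words occur in annotated transcripts of other genes. How much of the tally came from Aurkc or its pseudogenes was not tested.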

How the results depend on the processing

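None of the 11 calls among the members changed direction under any of the 9 kinds of alternative run. Values at an FDR of 5% came from the main fits and could neither turn nor miss. For a gene with 1 RefSeq transcript, the least counted transcript repeats the main value. With these included, 12 of 150 values of the calls missed the threshold. These were Bora in Ago2 ADH and Ago2 null and Aurka in Ago2 ADH and Dicer KO, as given with the results for each library left out. Over the fits with a library left out, the number of members lower ranged from 2 to 4 in Ago2 ADH (2 without Ago2 ADH replicate 1), 3 to 4 in Ago2 null and 2 to 3 among the Dicer libraries, and the number higher was 0 throughout. At an FDR of 5%, 1 member was higher in Ago2 ADH (Tpx2) and 1 in Dicer KO (Aurkb), and 1 had a lower Ago2 ADH than Dicer KO effect (Bora). By DESeq2 1 was higher in Dicer KO and 1 lower in the interaction, the same genes. Calls over all transcripts were not counted at an FDR of 5% or with a library left out.

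Replicate numbers did not pair the libraries: deviations of same-numbered libraries correlated at 0.01, 0.04 and 0.05 in Ago2 ADH against Ago2 fl/fl, -0.12 and -0.06 with Ago2 null, and -0.14, 0.05 and -0.18 in the Dicer libraries. With the replicate block 4 members were lower in Ago2 ADH and 3 in Ago2 null (Bora at -0.29, adjusted p = 0.0187 by edgeR). In Dicer KO 2 were lower (Aurka at -0.25, adjusted p = 0.0101 by edgeR), and 0 were higher in each comparison. Over all transcripts the block gave 3817 lower and 3862 higher of 18835 in Ago2 ADH. It gave 3059 lower and 2982 higher of 19236 in Ago2 null, and 2953 lower and 2725 higher of 18570 in Dicer KO.

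Signs turned only among values that had not passed the test. With all 5 groups in one fit the Ago2 ADH log2 fold changes of Aurkb, Birc5 and Cdca8 were -0.0006, -0.0355 and -0.0195. Cdca8 in Ago2 null was 0.0036 by DESeq2 and by RLE, and with the replicate block Bora and Tacc3 in Ago2 ADH against Ago2 null were -0.0155 and -0.0035. With a library left out, Ago2 ADH values ranged from -0.0106 to 0.1243 for Aurkb, -0.0335 to 0.0619 for Birc5, -0.0274 to 0.0685 for Cdca8 and -0.0975 to 0.0106 for Tacc3. In Ago2 null they ranged from -0.0301 to 0.3148 for Aurkb and -0.0189 to 0.0258 for Cdca8, and in Dicer KO from -0.0824 to 0.0459 for Incenp and -0.0202 to 0.0805 for Birc5. Between the Ago2 mutants they ranged from -0.1212 to 0.0566 for Aurka, -0.2896 to 0.0667 for Aurkb, -0.0807 to 0.0653 for Incenp, -0.0455 to 0.0541 for Cdca8, -0.0154 to 0.0349 for Bora, -0.0266 to 0.0371 for Tpx2 and -0.0224 to 0.0428 for Tacc3. In the interaction they ranged from -0.1775 to 0.0221 for Aurkc and -0.0236 to 0.0609 for Tpx2.

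Over all transcripts, 23 were called between Ago2 ADH and Ago2 null, 81 by DESeq2, 94 without a filter and 142 with the block, and in the interaction 692 (234 higher) against 1104 (513 higher) by DESeq2. The cause of these shifts was not tested. Aurkb had the lowest counts of the members, 581 to 1047 per library.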
